A study of Mus musculus with 4 samples.

Results

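ID8 cells, a mouse ovarian cancer line, were examined for the genes that receive an interferon signal and switch it off again. The ligand was Ifnb1, the receptor chains were Ifnar1, Ifnar2, Ifngr1 and Ifngr2, the kinases were Jak1, Jak2 and Tyk2, and the feedback inhibitors were Socs1 and Socs3. These 10 genes were taken by symbol from the 22063 genes of the deposited table. The cells carried either a control shRNA (shCtrl, genotype given as WT) or an shRNA against USP9X, a deubiquitinase that removes ubiquitin from its substrates (shUSP9X, genotype given as a USP9X knockdown). Each group had 2 libraries of polyadenylated RNA, with estimated counts summing to 17232006 and 15611363 for shCtrl and to 19978889 and 17021261 for shUSP9X. The hairpins were delivered in a lentiviral vector with puromycin resistance. The labels call the shUSP9X libraries shUSP9X-21 and shUSP9X-22 as well as replicates 1 and 2, and what these further numbers stand for is not stated. The sources used here name no added interferon, and they do not state whether the 2 libraries of a group came from separate cultures. The p-values therefore measure the spread between these libraries, which may be technical.

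Interferon beta binds a receptor made of IFNAR1 and IFNAR2, and interferon gamma binds a receptor made of IFNGR1 and IFNGR2. Tyk2 sits on IFNAR1, Jak1 on IFNAR2 and IFNGR1, and Jak2 on IFNGR2, and the kinases phosphorylate STAT proteins that enter the nucleus. A complex that contains STAT2 and IRF9 binds the interferon-stimulated response element, while dimers of STAT proteins bind the gamma-activated site. SOCS1 inhibits JAK kinases at these receptors, and SOCS3 does so mainly at receptors that contain gp130, the product of Il6st. Ovarian surface epithelial cells, from which ID8 was derived, are not immune cells, but nearly all nucleated cells can respond to type I interferon.

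The promoter sequences are shown because the SOCS genes and some receptor genes held letters that these transcription factors can bind. Windows from 250 bases before to 50 bases after the RefSeq start site (GRCm38.p6) were found for all 10 genes and searched on both strands. The core of the interferon-stimulated response element was written as GAAA, any 2 bases, then GAAA, and occurred in 3.44% of all 32851 windows. The gamma-activated site was written as TTCNNNGAA and occurred in 8.3% of them. The letters of the 2 motifs were searched independently, and a window could hold both. In the lines below the sequences run 5′ to 3′ along the strand of the gene, with the motif in capitals.
Socs1 (chr16:10785487-10785786, minus strand): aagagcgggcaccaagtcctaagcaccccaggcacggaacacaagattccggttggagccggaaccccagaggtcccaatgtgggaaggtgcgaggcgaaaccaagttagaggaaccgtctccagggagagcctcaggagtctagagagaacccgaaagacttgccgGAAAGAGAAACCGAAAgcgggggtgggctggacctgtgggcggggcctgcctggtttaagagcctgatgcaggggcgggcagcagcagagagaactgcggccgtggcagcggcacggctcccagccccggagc
Socs3 (chr11:117969317-117969616, minus strand): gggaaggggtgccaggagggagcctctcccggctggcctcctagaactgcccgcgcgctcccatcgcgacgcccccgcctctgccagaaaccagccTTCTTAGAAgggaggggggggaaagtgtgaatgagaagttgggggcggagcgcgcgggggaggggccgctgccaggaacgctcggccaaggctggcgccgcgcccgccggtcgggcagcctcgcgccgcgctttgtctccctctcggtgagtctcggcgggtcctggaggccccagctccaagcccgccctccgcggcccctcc
Ifnar1, bases around the motif: ggcgggggcgTTCACGGAAggggcggggc
Ifnar2, bases around the motif: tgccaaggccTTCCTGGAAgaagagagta

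Socs1 alone among the 10 genes held the response element core, in a pair of overlapping copies whose first bases lay at -83 and -77, counted with the start site as +1. Among 22 interferon response genes with a window (a list described below), 14 held that core, or 63.6%. These were counted by gene, in any window of it, whereas the 3.44% above is a share of single windows. The list was also written as targets of interferon, so the share is a description. The gamma-activated site occurred in 3 of the 10 windows, at -154 in Socs3, -214 in Ifnar2 and -5 in Ifnar1. With 1 more spacer base it occurred in 6.95% of all windows and in that of Ifngr2, at -91. The windows of Ifnb1, Ifngr1, Jak1, Jak2 and Tyk2 held none of these letters, which says nothing of sites outside the window or of other spellings. A match is a description of the sequence, and binding was not measured.

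Usp9x, the targeted gene, had 5169 and 4453 counts in shCtrl against 390 and 346 in shUSP9X. These were 298 and 282 CPM (counts scaled to library size, normalized by the trimmed mean of M-values, TMM) against 19.7 and 20.5. The groups were far apart, and the log2 fold change was -3.85 (SE 0.06, adjusted p = 4.7e-26 by the quasi-likelihood test of edgeR). The cell type of the label was checked against markers of ovarian surface epithelium and mesothelium. Krt19, a keratin and the most abundant of them, had 703 and 711 CPM in shCtrl, and Msln, Wt1, Krt8, Krt18, Upk3b, Gata6 and Cdh2 were also above 50 CPM in every library. Of the 13 markers, Krt7, Epcam, Pax8 and Lhx9 lay at 11 counts or fewer in every library. Cdh1, the gene of E-cadherin, was also low, with 3.29 and 1.64 CPM in shCtrl against 2.63 and 3.15 in shUSP9X. It did not pass the test (log2 fold change 0.21, SE 0.32). The markers did not move together. Krt8 (log2 fold change 0.92) and Krt18 (0.64) were higher in shUSP9X, while Gata6 (-0.54), Wt1 (-0.52), Cdh2 (-0.5) and Msln (-0.47) were lower. Krt19 was higher by 0.12, a call lost on the deposited FPKM values and without shUSP9X replicate 1. It turned with the offset for GC content and length described below (-0.17). That offset also took Krt18 to 0.34 and Msln to -0.71.

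The libraries differed in markers of immune cells. Of 20 such genes, 13 had at most 3 counts in every library, and 7 of these were at 0 throughout, among them Cd3e of T cells and C1qa, a complement gene of tissue macrophages. The 6 that passed the filter on low counts were at 0 in shCtrl and could pass only through their counts in shUSP9X. The 20 genes summed to 0.115 and 0.0632 CPM in shCtrl and to 12.4 and 12.6 CPM in shUSP9X. Itgam, the most abundant, had 0 counts in both shCtrl libraries and 72 and 75 in shUSP9X, and Ptprc, the pan-leukocyte marker CD45, had 0 and 0 against 29 and 18. In shUSP9X the macrophage markers Adgre1 and Csf1r had 58 and 59 and 17 and 13 counts, and Siglecf and Ccr3, markers of eosinophils, had 25 and 17 and 35 and 22. Epx, an eosinophil granule gene, and Lyz2, a lysozyme gene of myeloid cells, had at most 2 counts in a library. Against a floor of 3 counts in each shCtrl library, Itgam was at least 22.3-fold higher and Ptprc at least 6.99-fold higher. Their part in the results that follow was not tested. In bulk RNA a change in the number of cells of a type and a change in RNA per cell cannot be told apart.

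Across all genes, 3843 of 11448 tested were lower in shUSP9X at an adjusted p under 0.05 (33.6%) and 3864 were higher (33.8%). At the study's threshold, p under 0.05 before adjustment with more than a 1.5-fold change, 18.7% were lower and 10.8% were higher. Of the 10 genes described here, 9 passed the filter on low counts. Ifnar1, Jak1, Jak2 and Socs3 were lower, Ifngr2 and Socs1 were higher, and Ifnar2, Ifngr1 and Tyk2 did not pass the test. The 4 lower genes were 44.4% and the 2 higher genes 22.2% of the 9, shares that with so few genes lie near the background. Their median log2 fold change was -0.09, against -0.001 over all genes tested. At the study's threshold only Jak2 was lower and only Socs1 was higher.

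Fold changes in these libraries varied with the base composition of the transcript. Genes were ordered by GC content and cut into 10 equal bins. The lowest bin (31.9 to 41.6% GC) had a median log2 fold change of -0.88 and the highest (58.2 to 74.7%) had one of 0.18. Values are therefore also given after an offset for GC content and length, a smooth trend over both together that was subtracted in the fit. They are given where the offset changed a call or moved a log2 fold change past the threshold by over 1.5 times. With the offset the log2 fold change of Usp9x was -2.34 in place of -3.85, lower past the threshold in both. The longest coding transcript of Usp9x holds 40.0% GC and measures 11887 bases. Genes within 1 point of that GC content had a median of -0.76. The trend was estimated from the same 4 libraries that were compared, so it can also take out part of a real difference. The parts of GC content and of length in it were not separated.

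**Figure D1:**
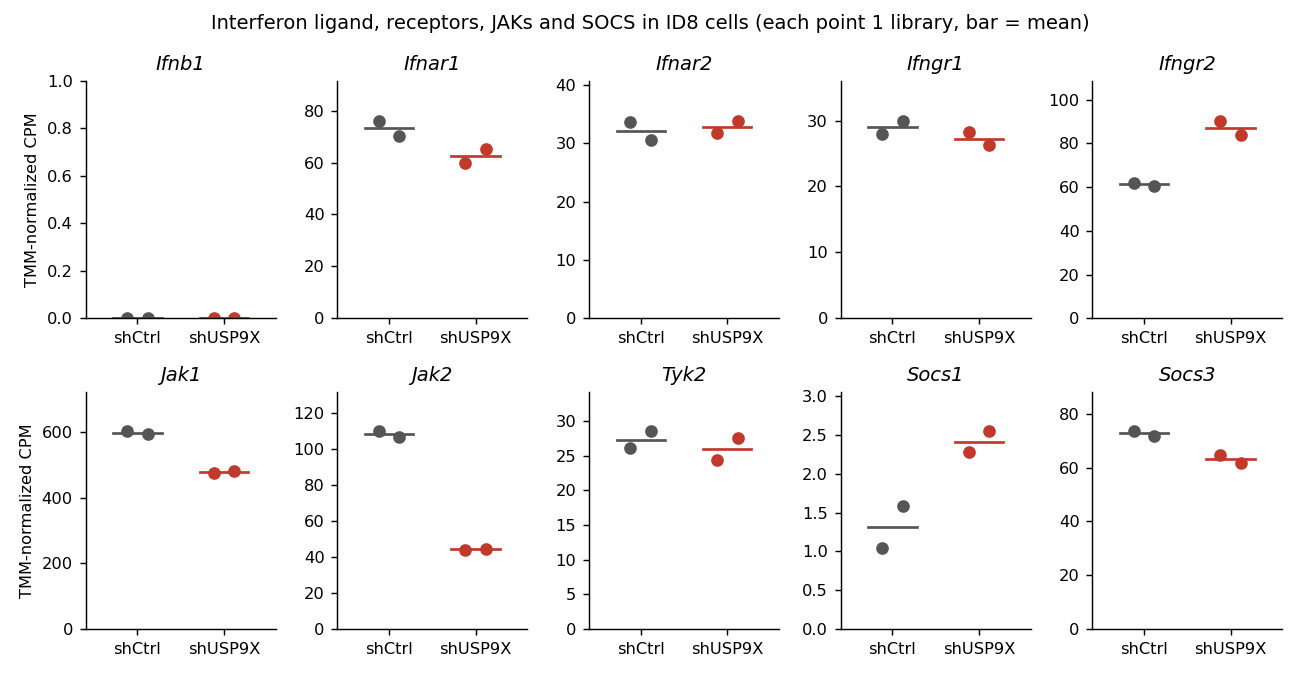
TMM-normalized CPM of the 10 genes in each library, with shCtrl in grey and shUSP9X in red. Each point is 1 library, the bar is the mean of the 2 libraries, and every vertical axis starts at 0. The groups are apart for Ifnar1, Ifngr2, Jak1, Jak2, Socs1 and Socs3, with Jak2 the farthest, overlap for Ifnar2, Ifngr1 and Tyk2, and lie at 0 for Ifnb1.

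Ifnb1 encodes the interferon beta that many cell types make after sensing viral nucleic acid. It lies on chr4:88522025-88522774 (GRCm38, minus strand) and had 0 counts in all 4 libraries. A count of 0 allows up to 3 counts, or 0.173 and 0.19 CPM in the shCtrl libraries and 0.152 and 0.178 CPM in the shUSP9X libraries, for counting error alone. No difference in Ifnb1 was detectable at this depth. The other interferon genes gave the same picture, since 19 of 20 were at 0 in every library and Ifnab had 1 count, in shUSP9X replicate 2. These RNA measurements do not cover interferon protein in the medium or a ligand from the serum.

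Of 15 genes that sense nucleic acid or act on the Ifnb1 promoter, 6 were higher, 2 were lower and 7 did not pass, with a median log2 fold change of 0.07. Irf7, a transcription factor for interferon genes that interferon itself induces, had 185 and 151 counts in shCtrl against 3373 and 2818 in shUSP9X (log2 fold change 4.06, SE 0.07, adjusted p = 4e-25, edgeR). The RNA sensor Rigi was higher by 1.15, the DNA sensor Cgas by 0.67, its adaptor Sting1 by 0.63, the adaptor Mavs by 0.53 and the NF-κB subunit Rela by 0.39, all on the log2 scale. Atf2, which binds the Ifnb1 enhancer, was lower (log2 fold change -0.52), as was the kinase Tbk1 (-0.42). Irf3, the factor that Tbk1 phosphorylates, had 582 and 534 counts in shCtrl against 696 and 600 in shUSP9X and did not pass (log2 fold change 0.07, SE 0.08). The sensor Ifih1 did not pass either, at -0.08 (SE 0.1). After the offset 9 of the 15 were higher and 5 lower, and Atf2 turned to 0.18, Ifih1 to 0.54 and Irf3 to -0.19, each past the threshold. Mavs was then at 0.35, Rela at 0.19 and Tbk1 at -0.26.

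Of the type I receptor chains, Ifnar1 was lower and Ifnar2 did not pass. Ifnar1, the chain that binds Tyk2, had 1321 and 1112 counts in shCtrl against 1182 and 1099 in shUSP9X, which were 76.2 and 70.3 CPM against 59.8 and 65.2. The shUSP9X libraries were both below the shCtrl libraries, but the gap between the groups was smaller than the spread within either. The log2 fold change was -0.23 (SE 0.06, 95% interval -0.36 to -0.1, adjusted p = 0.0023, edgeR). Without shUSP9X replicate 1 it was -0.17 with an adjusted p of 0.08, and on FPKM with limma it was -0.18 with an adjusted p of 0.095. Ifnar2, the chain that binds the ligand with the higher affinity, had 33.6 and 30.6 CPM in shCtrl against 31.8 and 33.9 in shUSP9X. The groups overlapped, and the log2 fold change was 0.03 (SE 0.09, 95% interval -0.15 to 0.21, adjusted p = 0.78).

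Levels were compared between genes in FPKM, which takes account of transcript length. The ratio of Ifnar1 to Ifnar2 FPKM was 0.92 and 0.958 in shCtrl against 0.735 and 0.733 in shUSP9X, so the ratio was lower in shUSP9X. The difference between the chains was not tested. Which chain was the more abundant depended on the scale. On FPKM Ifnar2 was above Ifnar1 within every library, though in shCtrl their ranges across libraries overlapped. On CPM per kb of the longest coding transcript Ifnar1 was the higher in both groups, at means of 18.7 against 10.5 in shCtrl and 16 against 10.8 in shUSP9X. The FPKM values of Ifnar2 corresponded to a transcript of 1.55 and 1.62 kb in shCtrl against 1.46 and 1.38 kb in shUSP9X. Its longest coding transcript measures 3.05 kb. For Ifnar1 the FPKM values corresponded to 3.83 and 3.88 kb against 3.74 and 3.63 kb, close to the 3.91 kb of its longest. A shorter length raises FPKM, so the ratio of Ifnar1 to Ifnar2 FPKM carries these lengths as well as the counts. Ifnar2 also shares 315 exon bases with Gm21970, a gene model on the same strand that had 0 counts in every library.

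Of the interferon gamma receptor chains, Ifngr1 did not pass and Ifngr2 was higher. Ifngr1, the chain that binds the ligand and Jak1, lies on chr10:19591949-19610229 (plus strand) and had 28 and 30.0 CPM in shCtrl against 28.2 and 26.3 in shUSP9X. The groups overlapped (log2 fold change -0.09, SE 0.09, 95% interval -0.28 to 0.1, adjusted p = 0.42). Ifngr2, the chain that brings in Jak2, had 1075 and 958 counts in shCtrl against 1789 and 1416 in shUSP9X, or 62 and 60.6 CPM against 90.5 and 84.0. Both shUSP9X libraries stood above both shCtrl libraries by far more than either group's spread. The log2 fold change was 0.51 (SE 0.06, 95% interval 0.39 to 0.63, adjusted p = 2.4e-08, edgeR), a 1.43-fold rise that lies under the study's threshold of 1.5. The ratio of Ifngr2 to Ifngr1 FPKM was 1.25 and 1.15 in shCtrl against 1.89 and 1.83 in shUSP9X.

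Ifnar2, Ifnar1 and Ifngr2 are neighbours. With Il10rb, a chain shared by the receptors for interferon lambda, IL-10 and IL-22, they lie on the plus strand of chromosome 16 within 192.8 kb (chr16:91372783-91565623, GRCm38). Ifnar2 lies on chr16:91372783-91405589, Ifnar1 on chr16:91485238-91507441 and Ifngr2 on chr16:91547072-91565623. Only 0.6 kb separate Ifnar2 from Il10rb, while 59.4 kb separate Il10rb from Ifnar1 and 39.6 kb separate Ifnar1 from Ifngr2. Il10rb had 26.8 and 26.1 CPM in shCtrl against 24.2 and 22.4 in shUSP9X and did not pass the test (log2 fold change -0.18, SE 0.1, adjusted p = 0.1). After the offset it was lower (-0.31, adjusted p = 0.0047). Along the chromosome, Ifnar2 and Il10rb thus did not pass without the offset, Ifnar1 fell and Ifngr2 rose.

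**Figure D2:**
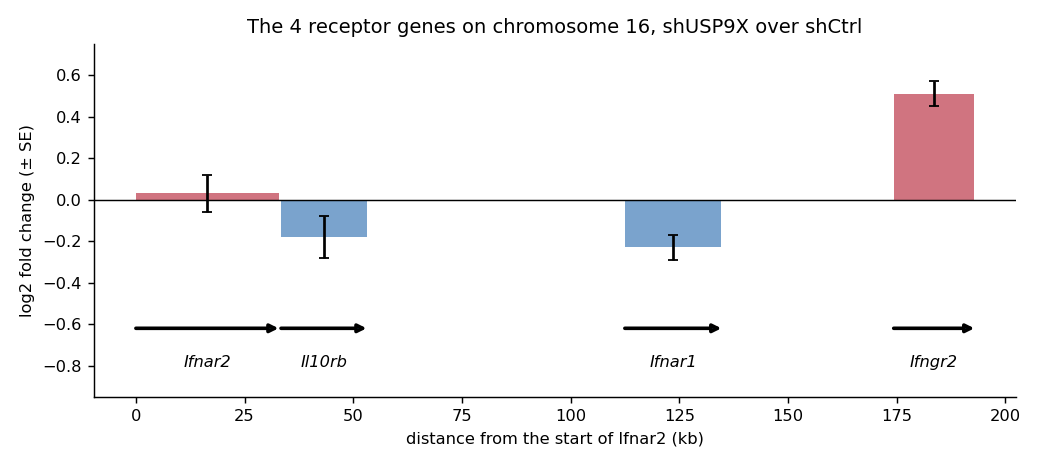
Log2 fold change (shUSP9X over shCtrl, edgeR) of the 4 receptor genes, drawn over the length of each gene at its distance in kb from the start of Ifnar2. Whiskers are the SE and arrows give the direction of transcription. The values are 0.03 for Ifnar2, -0.18 for Il10rb, -0.23 for Ifnar1 and 0.51 for Ifngr2.

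Of 4 other chains of the interferon receptor class that were tested, 1 was higher and 3 did not pass. Ifnlr1, which pairs with Il10rb for interferon lambda, had 162 and 190 counts in shCtrl against 177 and 179 in shUSP9X (log2 fold change -0.13, SE 0.15, adjusted p = 0.48). Il22ra1, which pairs with Il10rb for IL-22, was higher, at 51.9 and 58.7 CPM against 75.1 and 77.8 (log2 fold change 0.47, SE 0.06, adjusted p = 4.9e-07). Il20rb, at -0.59 (SE 0.29), did not pass. After the offset Il22ra1 was at 0.24 (adjusted p = 0.0011) and 2 of the 4 were lower, Il10rb and Il20rb (-0.76, adjusted p = 0.021), and Il20rb was also lower without shUSP9X replicate 2. Il10ra was not tested, with 0 and 0 counts in shCtrl against 10 and 3 in shUSP9X, and Il20ra was at 0 throughout.

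Jak2 fell more than any other of the 9 genes tested. It encodes the kinase of the interferon gamma receptor, and of the receptors for growth hormone and erythropoietin, and lies on chr19:29251828-29313080 (plus strand). It had 1902 and 1694 counts in shCtrl against 872 and 753 in shUSP9X, or 110 and 107 CPM against 44.1 and 44.7. The libraries of a group nearly coincided and the groups were far apart. The log2 fold change was -1.29 (SE 0.06, 95% interval -1.41 to -1.17, adjusted p = 1.4e-16, edgeR), a level of 0.409 times that of shCtrl. Jak2 was lower under all 15 alternatives tried, between -1.32 and -0.86, including the test against a fold change of 1.5 (adjusted p = 7.7e-12).

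The longest coding transcript of Jak2 holds 44.3% GC, and the 1032 genes within 1 point of it had a median of -0.29. After the offset for GC content and length, Jak2 had a log2 fold change of -0.86 (95% interval -0.97 to -0.74, adjusted p = 1.8e-14). The difference in Jak2 therefore remained beyond its error but was smaller. The genes most like Jak2 across the 4 libraries, among 4052 of similar abundance, were Lnpep, Glce and Rps6ka3. Their root mean square differences in log2 CPM were 0.0199, 0.0218 and 0.024, and their log2 fold changes were -1.32, -1.26 and -1.25. Since the 3 genes were picked by this likeness, similar fold changes follow from the choice. Their longest coding transcripts hold 40.3, 44.0 and 40.5% GC.

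Jak1, the kinase that all interferon and many interleukin receptors use, was the most abundant of the 10 genes. It lies on chr4:101152367-101265282 (minus strand) and had 603 and 595 CPM in shCtrl against 476 and 482 in shUSP9X. The groups did not overlap, and each was narrow. The log2 fold change was -0.32 (SE 0.03, 95% interval -0.39 to -0.25, adjusted p = 4.2e-09, edgeR). After the GC content and length offset it was -0.17 (95% interval -0.23 to -0.11, adjusted p = 1.2e-05). Tyk2, the kinase of IFNAR1, had 26.1 and 28.5 CPM in shCtrl against 24.4 and 27.6 in shUSP9X on chr9:21104068-21131243 (minus strand). The groups overlapped (log2 fold change -0.07, SE 0.1, 95% interval -0.27 to 0.13, adjusted p = 0.52). Tyk2 shares 554 exon bases with the antisense gene 1700084C06Rik, and the sources used here name no strand setting, so reads from the 2 genes cannot be told apart there.

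Ratios between the kinases were set side by side, with no test of their difference. The ratio of Jak1 to Jak2 FPKM was 5.26 and 5.23 in shCtrl against 10 and 10.1 in shUSP9X. The ratio of Jak1 to Tyk2 FPKM was 21.6 and 19.5 in shCtrl against 18.3 and 16.4 in shUSP9X. The groups did not overlap in either ratio, but for Jak1 to Tyk2 the gap between them was smaller than the spread within each. After the offset the log2 fold changes of Jak1 and Tyk2 were close, at -0.17 and -0.16, and that of Jak2 was -0.86. Jak3, the kinase that works with the common gamma chain of lymphocytes, was low, with 4.21 and 3.73 CPM in shCtrl against 3.95 and 5.94 in shUSP9X (log2 fold change 0.3, SE 0.24, adjusted p = 0.26).

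**Figure D3:**
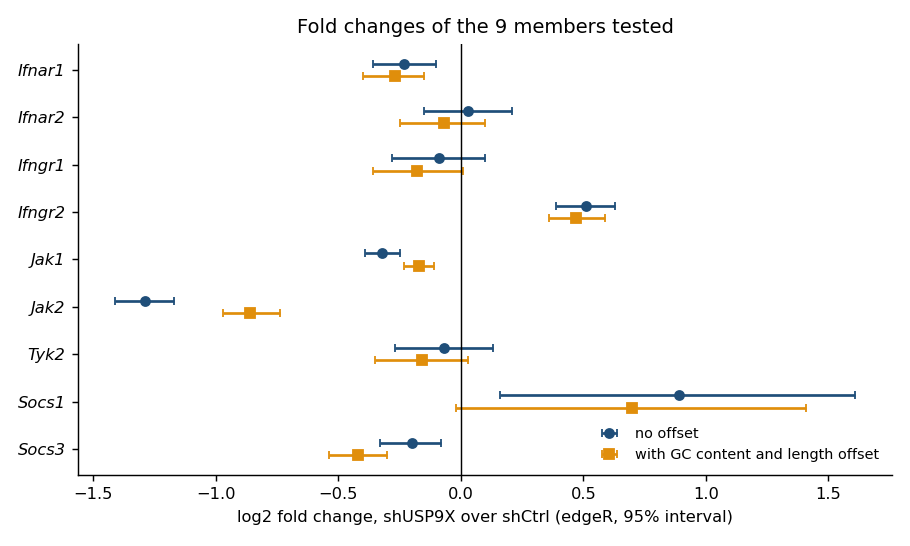
Log2 fold change (shUSP9X over shCtrl, horizontal axis) of the 9 genes tested, with 95% intervals, from the fit without an offset (circles) and from the fit with an offset for GC content and length (squares). Jak2 lies lowest in both, at -1.29 and -0.86, Socs3 moves from -0.2 to -0.42, and the interval of Socs1 reaches -0.02 with the offset.

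The inhibitors Socs1 and Socs3 moved in opposite directions, but from very different levels. Socs1, on chr16:10782240-10785536 (minus strand), had 18 and 25 counts in shCtrl against 45 and 43 in shUSP9X, or 1.04 and 1.58 CPM against 2.28 and 2.55. The groups did not overlap. The log2 fold change was 0.89 (SE 0.35, 95% interval 0.16 to 1.61, adjusted p = 0.029, edgeR). The call rests on few counts and was lost with DESeq2 (adjusted p = 0.12), after the offset (0.7, adjusted p = 0.084) and without shCtrl replicate 1 (0.61, adjusted p = 0.21), shUSP9X replicate 1 (0.97, adjusted p = 0.061) or shUSP9X replicate 2 (0.8, adjusted p = 0.12). The summed immune cell markers were higher in the same libraries, at 12.4 and 12.6 CPM against 0.115 and 0.0632, and their part in the Socs1 value was not tested.

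Socs3, on chr11:117966079-117970047 (minus strand), had 1276 and 1138 counts in shCtrl against 1277 and 1041 in shUSP9X. Scaled to library size, these were 73.6 and 72.0 CPM against 64.6 and 61.8, and the groups did not overlap. The log2 fold change was -0.2 (SE 0.06, 95% interval -0.33 to -0.08, adjusted p = 0.0041, edgeR), and without shUSP9X replicate 2 it was -0.17 with an adjusted p of 0.066. The Socs3 transcript is rich in GC (58.7%), and after the offset its log2 fold change was -0.42 (adjusted p = 2.2e-07). The ratio of Socs1 to Socs3 FPKM was 0.0126 and 0.0196 in shCtrl against 0.032 and 0.0371 in shUSP9X, so Socs3 remained by far the more abundant in both groups. Of the promoter motifs shown above, the response element core lay in Socs1, whose higher call changed under 7 of 13 alternatives. The gamma-activated site lay in Socs3 and Ifnar1, which were lower, and in Ifnar2, which did not pass.

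**Figure D4:**
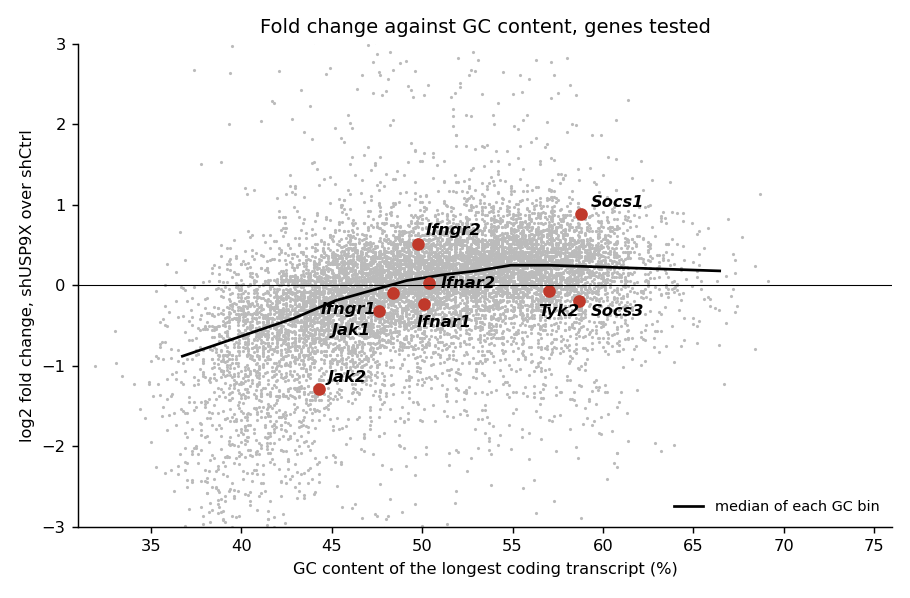
Log2 fold change (shUSP9X over shCtrl, vertical axis) against the GC content in % of the longest coding transcript, for the genes tested (grey points) and the 9 genes described here (red, named). The line joins the medians of the 10 bins, each placed at the middle of its GC range, and 216 genes beyond 3 log2 units are not drawn. Jak2, at 44.3% GC, lies below the median of -0.19 in its bin, and Socs1 and Socs3 lie on opposite sides of the median of 0.18 in theirs.

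Other SOCS genes were measured as well. Socs2, the inhibitor that growth hormone and STAT5 induce, had 7.61 and 8.41 CPM in shCtrl against 3.59 and 4.39 in shUSP9X (log2 fold change -1.01, SE 0.2, adjusted p = 6.3e-05). Socs4 had 36.1 and 37.1 CPM against 18.4 and 18.9 (log2 fold change -0.97, SE 0.09, adjusted p = 7.2e-10), and its transcript is poor in GC at 38.5%. These were the 2 genes to pass among the 7 other JAK and SOCS family genes. Cish, another STAT5 target, did not pass (log2 fold change 0.27, SE 0.15), nor did Socs5 (0.03, SE 0.05), Socs6 (-0.06, SE 0.07) and Socs7 (0.14, SE 0.08). The offset changed this picture, with 4 genes higher and 1 lower. Socs2 remained lower (-1.05), while Socs4 turned to 0.22 (adjusted p = 0.038) and Socs5, Socs6 and Socs7 were higher, at 0.16, 0.91 and 0.18.

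In order of FPKM in shCtrl, Jak1 (mean 124) stood first, followed by Socs3 (28.8), Jak2 (23.6), Ifnar2 (20.5), Ifnar1 (19.2), Ifngr2 (16.7), Ifngr1 (13.9), Tyk2 (6.04), Socs1 (0.464) and Ifnb1 at 0. Among neighbours in this order, only Ifnar2 and Ifnar1 overlapped between libraries. In shUSP9X the order was Jak1 (97.3), Socs3 (24.5), Ifngr2 (23.9), Ifnar2 (22.9), Ifnar1 (16.8), Ifngr1 (12.8), Jak2 (9.65), Tyk2 (5.62), Socs1 (0.845) and Ifnb1. There the libraries of Socs3 overlapped those of Ifngr2, and those of Ifngr2 overlapped those of Ifnar2. Jak2 moved from place 3 to place 7, also when CPM was divided by the length of the longest transcript. On that second scale Ifnar2 stood lower, at place 7 in shCtrl and 6 in shUSP9X.

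Genes of STAT proteins and Irf9, which the receptors act through, were next in the pathway. Of 6 tested, 3 were higher and none was lower, with a median log2 fold change of 0.22. Stat2 had 23.8 and 24.3 CPM in shCtrl and 85.8 and 90.1 in shUSP9X (edgeR, log2 fold change 1.87, SE 0.07, adjusted p = 2.6e-18), and Irf9 had 12.5 and 14.7 against 50.1 and 49.2 (1.87, SE 0.1, adjusted p = 1.9e-15). Both genes encode parts of the complex that type I interferon activates, and both are known to be induced by interferon. Stat6, a factor of IL-4 signaling, was higher by 0.3 (SE 0.05, adjusted p = 1.7e-06), and by 0.16 after the offset. Stat3, Stat5a and Stat5b did not pass, at 0.07, 0.14 and 0.02, and Stat4 had at most 1 count in a library.

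Target genes of interferon were mostly higher. Of 25 tested, 21 rose, Ifit2 fell and 3 did not pass, with a median log2 fold change of 1.62. Since this direction was known from earlier results of these data, the count is a description. Oas2, which makes the activator of RNase L, had 2.19 and 1.45 CPM in shCtrl against 32.5 and 36.9 in shUSP9X (log2 fold change 4.23, SE 0.16, adjusted p = 4.3e-18). Irf7 rose by 4.06 and Oas3 by 3.55. Ifit2, which binds viral RNA, had 17.9 and 19.4 CPM against 11.9 and 12.1 (-0.63, SE 0.12, adjusted p = 4.1e-05). Irf1, a typical target of the gamma-activated site, had 99.1 and 93.3 CPM against 102 and 101 and did not pass (0.08, SE 0.05). Ifih1 and Gbp7 did not pass either, at -0.08 and -0.28. After the offset 22 were higher and 1 was lower, with a median of 1.65, and Ifit2 did not pass (-0.12) while Irf1 was lower (-0.14, adjusted p = 0.013). Without shCtrl replicate 1 Irf1 was instead higher (0.13, adjusted p = 0.039). The immune cell markers were higher in the same libraries, and their part in these values was not tested.

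**Figure D5:**
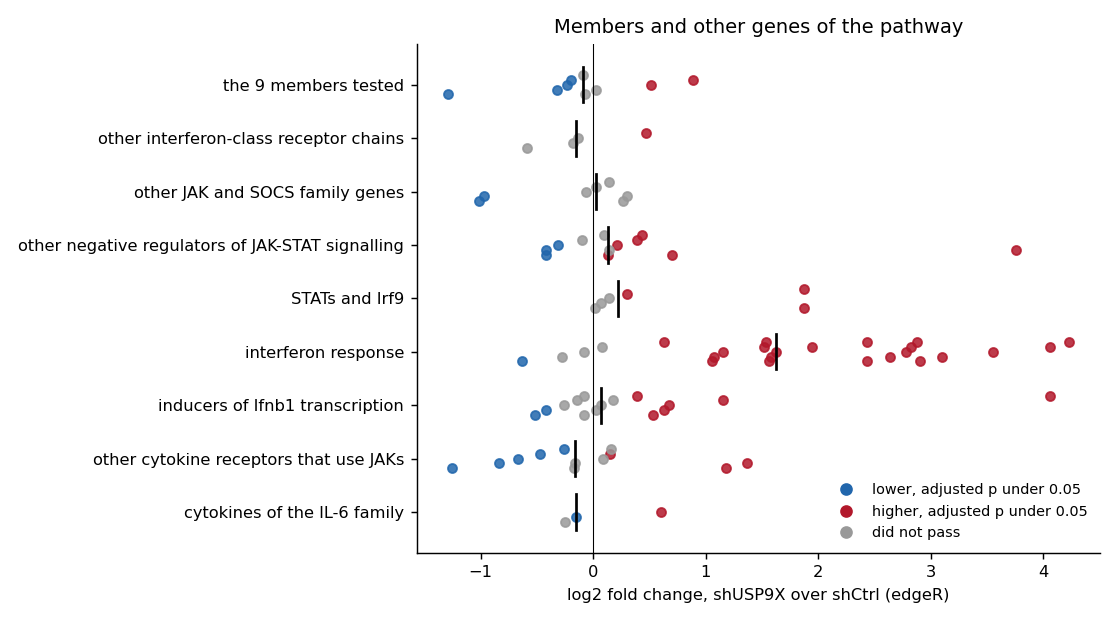
Log2 fold change (shUSP9X over shCtrl, edgeR, horizontal axis) of each gene tested in 9 groups of pathway genes, with blue for lower, red for higher and grey for genes that did not pass. Black bars are medians of the genes drawn, and Ptprc and Csf2rb, at 0 in shCtrl, are not drawn. The interferon response genes centre on 1.62 and reach 4.23, while the median of the 9 genes described here is -0.09.

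Other inhibitors of JAK-STAT signaling were 7 higher, 3 lower and 3 not passed of 13 tested (median log2 fold change 0.14). Usp18, which blocks Jak1 at IFNAR2 and is itself induced by interferon, had 24 and 39 counts in shCtrl against 502 and 447 in shUSP9X. These were 1.38 and 2.47 CPM against 25.4 and 26.5 (log2 fold change 3.76, SE 0.18, adjusted p = 2.9e-16). Pias4, a SUMO ligase that restrains STAT proteins, rose by 0.7 and the ubiquitin ligase Trim27 by 0.43 on the log2 scale. Ptprc, the phosphatase CD45, is the immune cell marker given above. It is counted among the 7 higher genes, but could pass the filter on low counts only through its counts in shUSP9X. Ptpn2, a phosphatase of JAK1, was lower (-0.42, SE 0.08, adjusted p = 8.3e-05), as were Pias2 (-0.42) and Pias1 (-0.31). Pias1 had 49.1 and 46.6 CPM in shCtrl against 33.7 and 43.6 in shUSP9X, and its call was lost without shUSP9X replicate 1. After the offset 9 were higher and 0 lower. Ptpn2 then turned to 0.21 (adjusted p = 0.026) and Pias1 to 0.37 (adjusted p = 0.00033), and Pias2 did not pass (-0.06).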

How the data were processed

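Oligo(dT)-selected RNA was sequenced. The study mapped reads to GRCm38 and used StringTie 1.3.1 and DESeq2, and the submitters' processing notes also name fastp 0.18.0, Bowtie2 2.2.8, HISAT2 and RSEM without their roles. The authors deposited estimated counts per gene, not normalized (6.395 to 6.69% of the values of a library were not whole), and FPKM values.

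Estimated counts were rounded to whole numbers, filtered with filterByExpr, and scaled by TMM. The genes were fitted in edgeR 4.0.16 under R 4.3.3 (glmQLFit and glmQLFTest, common biological coefficient of variation 0.0352), with Benjamini-Hochberg adjustment over 11448 genes. Rounding was added because whole counts had been planned. Replicates differed by more than sampling noise (chi-square per gene 3.38 in shCtrl, 2.09 in shUSP9X). The deposited FPKM values served for levels between genes and, as log2(FPKM + 1), for limma 3.58.1. Alternatives included DESeq2 1.42.0 and a loess offset (span 0.3) over GC content and length of the longest coding transcript in GENCODE M21, the source of gene coordinates. Promoter sequences came from RefSeq. The members and lists were chosen with earlier results of these data known. Named genes were all 10 genes of the group, Usp9x, every tested gene of lists of up to 8, in longer lists the 3 highest and 3 lowest past the threshold, list genes next to a member on the chromosome and the 3 genes most like Jak2. Other genes named were chosen after their values were seen. With 2 libraries against 2, no exact permutation test can reach 0.05, so none was run. Floors cover counting error only, since no molecular identifiers are described. Some genes of the lists are not reported here and were left out of the lists' counts.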

Additional observations from a re-analysis of the deposited data

How the results depend on the processing

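Jak2 and Usp9x stayed lower past the threshold under all 15 alternatives, though the offset for GC content and length took Usp9x from -3.85 to -2.34. Tested against a fold change of 1.5, 1474 genes were lower and 708 higher, so that 67.6% of calls were lower against 49.9% without that requirement and 43.1% with the offset for GC content and length. Under that requirement 1 of the interferon pathway genes described in the report (Jak2) was lower and 0 were higher, and adjusted p-values were 1.0 for Ifnar1 (-0.23), Ifngr2 (0.51), Jak1 (-0.32) and Socs3 (-0.2) and 0.31 for Socs1 (0.89). The number of these genes that were higher fell from 2 to 1 with DESeq2, with both FPKM fits, in which Socs1 was not tested because its mean FPKM was under 1, and with the offset for GC content and length, without or with the replicate block, and the number higher at the study's threshold then fell from 1 to 0. Socs1 was at 0.89 (adjusted p = 0.12) with DESeq2, 0.7 (0.084) with the offset and 0.71 (0.1) with offset and block. Ifnar1 was at -0.18 and -0.19 on log2(FPKM + 1) and log2(FPKM + 0.1), with an adjusted p of 0.095 in each.

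Leaving out 1 library at a time leaves a lone library that is assumed to vary like the other group. The number of higher genes then ranged from 1 to 2 and that at the study's threshold from 0 to 1. Log2 fold changes ranged from -0.29 to -0.17 for Ifnar1, from 0.61 to 1.21 for Socs1 and from -0.24 to -0.17 for Socs3, and the calls of Ifnar1, Socs1 and Socs3 were lost in at least 1 of these fits. The replicate numbers were shared by the groups but did not pair the libraries (correlation of same-numbered deviations -0.0453), and with the replicate block 3810 genes were lower and 3855 higher and none of the 9 genes changed its call. With the other scalings the median log2 fold change over genes lay between -0.029 and 0.002. Socs1 is limited by depth, at 18 to 45 counts per library, and Ifnb1 by the floor of 3 counts.

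Of the tested genes of the other lists named in the text, all but Cdh1 were compared between fits, 62 in number. The offset for GC content and length turned the sign of 12 that passed the threshold in either fit. The values were the same with and without the replicate block. The offset took Atf2 to 0.18, Socs4 to 0.22, Ptpn2 to 0.21, Pias1 to 0.37, Lifr to 0.4, Il6st to 0.42 and Krt19 to -0.17 from calls in the opposite direction. It took Irf3 (-0.19), Ifih1 (0.54), Socs6 (0.91), Irf1 (-0.14) and Upk3b (-0.11) past the threshold from values of the other sign that had not passed. On FPKM, Pias1 was at 0.05 with both pseudocounts and Stat5a at -0.35 on log2(FPKM + 1) (adjusted p = 0.049).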

Other observations

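Receptors for other cytokines that signal through JAK kinases were 5 lower, 4 higher and 4 not passed of 13 tested, with a median log2 fold change of -0.16. After the offset for GC content and length 3 were lower and 6 higher, with a median of 0.11, and without shUSP9X replicate 2 the number higher was 2. Ghr, the growth hormone receptor, which uses Jak2, had 37.7 and 38.3 CPM in shCtrl against 15.7 and 16.4 in shUSP9X (log2 fold change -1.25, SE 0.1, adjusted p = 8.3e-12, edgeR). Osmr, the oncostatin M receptor, had 189 and 188 CPM against 103 and 108 (-0.84, SE 0.05, adjusted p = 1.5e-14). Lifr, the receptor chain of leukemia inhibitory factor, had 104 and 105 against 68.1 and 63.3 (-0.67, SE 0.06, adjusted p = 5.2e-11). Their longest coding transcripts hold 40.9, 46.0 and 44.4% GC, and genes within 1 point of these had medians of -0.67, -0.12 and -0.28. The same transcripts measure 4175, 5491 and 9655 bases, and the offset covers length as well as GC content. After the offset Ghr (-0.58) and Osmr (-0.51) remained lower, and Lifr turned to 0.4 (adjusted p = 1.8e-07). Il2rg and Il15ra, low receptor chains of lymphoid cytokines, were higher, at 14 and 18 counts against 52 and 40 and at 13 and 9 counts against 26 and 29. The Il15ra call (log2 fold change 1.18, SE 0.45, adjusted p = 0.022) was lost with DESeq2 (adjusted p = 0.11), without shCtrl replicate 2 (1.0, adjusted p = 0.096) and without shUSP9X replicate 2 (0.98, adjusted p = 0.16). Csf2rb, the common chain for IL-3, IL-5 and GM-CSF, had 0 counts in both shCtrl libraries and 59.64 and 43 estimated counts in shUSP9X. Against the floor of 3 counts per library it was at least 15.4-fold higher. Csf2rb is counted among the higher genes above, but could pass the filter on low counts only through its counts in shUSP9X.

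Among cytokines of the IL-6 family, Lif was higher, with 19.6 and 18.8 CPM in shCtrl against 28.7 and 29.4 in shUSP9X (0.6, SE 0.1, adjusted p = 5.8e-06, edgeR). Clcf1 was lower, with 58.6 and 57.3 CPM against 49.9 and 54.6 (-0.15, SE 0.07, adjusted p = 0.048), a call lost under 9 of 15 alternatives, among them DESeq2, both FPKM fits and the fits without shCtrl replicate 1 or shUSP9X replicate 1. After the offset Clcf1 was lower by more (-0.42, adjusted p = 1.5e-06). Ctf1 did not pass (-0.25, SE 0.28). Il6 was not tested, with 0 and 0 counts in shCtrl against 7 and 5 in shUSP9X.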
